A study of Mus musculus with 8 samples.

Results

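Oxidative phosphorylation genes were described in sorted Tfh (T follicular helper) cells, whose known role is to support germinal centre B cells. The members are the protein-coding genes of both count tables whose symbols belong to the subunit families of the respiratory complexes (Nduf, Sdh, Uqcr, Cox4 to Cox8, Atp5, and the mt-Nd, mt-Co, mt-Cytb and mt-Atp genes), chosen by symbol and not by any measured value. The choice was made with earlier results of these data known. There were 101 members among 16735 genes, 88 encoded in the nucleus and 13 in mitochondrial DNA. By complex they were 44 for complex I, 8 assembly factors of complex I, 4 for complex II, 9 for complex III, 17 for complex IV and 19 for complex V. Of the 101, 100 passed the filter on low counts. Cox6b2, known as the testis form of its subunit, did not, with at most 0.675 CPM (counts relative to the scaled library total) in a library.

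Messenger RNA was profiled by bulk sequencing in 4 groups of 2 libraries. These were ZsGreen+ Tfh cells of Peyer's patch, ZsGreen− Tfh cells of Peyer's patch, ZsGreen+ Tfh cells of spleen and ZsGreen− Tfh cells of spleen, and the study compared ZsGreen+ with ZsGreen− cells to find signature genes of Tfh cells derived from Th17 cells. The donors of all groups were K/BxN mice, which develop arthritis spontaneously, and carried a Th17 fate-mapping reporter, in which ZsGreen marks cells that were once in the Th17 state. The Cre driver, the age and the number of animals are not stated in the labels. All were CD4+, TCRβ+, CD25−, CXCR5+ and PD-1+. Replicate 1 of every group is from experiment 1 and replicate 2 from experiment 2. Nothing says that they are separate animals, so the p-values measure only how much these samples vary, and that variation may be technical.

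The respiratory chain moves electrons from NADH through complex I, or from succinate through complex II, to coenzyme Q. Complex III passes them to cytochrome c and complex IV to oxygen, and complex V makes ATP from the proton gradient that complexes I, III and IV build. Complex II is wholly nuclear-encoded. The others join nuclear subunits with subunits made inside the mitochondrion, whose genes are transcribed as long precursors from the mitochondrial genome. Activated T cells use both this pathway and glycolysis.

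Libraries held 9950042 to 15318207 estimated counts in these genes. The 5 Th17 markers summed to 107 and 435 CPM (replicates 1 and 2) in Peyer's patch ZsGreen+ cells against 17.4 and 92.1 CPM in ZsGreen− cells, and to 538 and 1584 CPM in spleen ZsGreen+ cells against 19.5 and 69.6 CPM in ZsGreen− cells. The 6 T cell markers and the 5 Tfh markers were present in every library. Spleen ZsGreen− replicate 2 stood apart, with the lowest trimmed mean of M values (TMM) scaling factor (0.656, against 0.818 to 1.24 in the other libraries) and the highest summed CPM of mitochondrial members after this scaling, though not the highest share of all counts (4.62%, against 2.64% to 5.29% in the other libraries). Mitochondrial results are therefore also given without it.

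Several members have near-identical pseudogene copies that hold part of their counts, which limits what their own values mean. The opening 60 coding bases of mt-Atp6, a subunit of the proton channel of complex V, and of mt-Nd3, a complex I subunit, show the scale of the overlap, from GENCODE vM21 transcripts (GRCm38), each with its copy on chromosome 1. The mt-Atp6 pair is identical over 678 aligned bases, and the mt-Nd3 pair differs at 1 of 345 bases, T3C, counted from the first base shown and given in capitals. A nuclear pair, Ndufa12 (a complex I accessory subunit, chromosome 10) and Ndufa12-ps (chromosome 5), differs at 2 of 402 bases, of which 1 lies in the stretch shown (A31G, in capitals).
mt-Atp6: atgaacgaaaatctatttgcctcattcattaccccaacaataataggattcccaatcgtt
Gm10925: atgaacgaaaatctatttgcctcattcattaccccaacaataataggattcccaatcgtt
mt-Nd3: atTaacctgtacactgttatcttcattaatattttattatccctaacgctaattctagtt
Gm28438: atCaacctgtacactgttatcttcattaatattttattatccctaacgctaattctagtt
Ndufa12: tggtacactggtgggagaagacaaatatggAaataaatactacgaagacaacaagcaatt
Ndufa12-ps: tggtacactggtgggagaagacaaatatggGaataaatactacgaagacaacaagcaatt

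Across members, 28 had 37 such copies in the tables (at least 95% identity over at least 100 aligned bases). For 6 of them the copies held most of the summed counts. They were Atp5g1, Atp5g2, Atp5h, Ndufa12, Ndufab1 and Ndufb4. Atp5g2, which encodes the c subunit of the complex V rotor like Atp5g1, is the extreme case: its copy Gm10175 took 98.5% of their joint counts, leaving Atp5g2 with 11 to 55 counts in a library. Cox5b-ps, annotated protein-coding and so itself a member, is 99.2% identical to Cox5b and held 15.4% of their joint counts. The levels given below for these members are those of the counts listed on the gene alone.

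Known regulators of nuclear respiratory genes are NRF1, GABPA and YY1, and short sequences around their binding motifs show what some members have in common beyond the rule. RefSeq promoter windows on GRCm38.p6, from 250 bases before to 50 after the start, matched 74 of the 88 nuclear members with 79 windows. NRF1's core GCGCATGC, on either strand, was in 15.2% of the members' windows and in 2.71% of all 32851 windows. YY1's AAGATGGC was in 13.9% and 2.75%, and GABPA's CCGGAAGT in 6.33% and 3.89%. The YY1 matches were placed alike: in 9 of the 11 members' windows one lay after the start, against 373 of 903 windows with a match in the whole table. Of the 11 genes with this match, 7 belong to complex I, which supplies 33 of the 74 genes matched to a window. The 30-base windows below, with the match in capitals, are examples from 7 of the members that hold an NRF1 or YY1 match.
Atp5g2 (NRF1, chr15:102671070-102671099, minus strand): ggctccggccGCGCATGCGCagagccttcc
Atp5k (NRF1, chr5:108434430-108434459, minus strand): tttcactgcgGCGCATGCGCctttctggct
Cox6a1 (NRF1, chr5:115349101-115349130, minus strand): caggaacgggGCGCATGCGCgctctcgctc
Sdhb (NRF1, chr4:140961206-140961235, plus strand): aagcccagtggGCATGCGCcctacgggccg
Uqcr11 (NRF1, chr10:80406807-80406836, minus strand): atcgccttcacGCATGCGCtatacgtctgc
Ndufaf8 (YY1, chr11:120098933-120098962, plus strand): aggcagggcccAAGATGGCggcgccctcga
Ndufc1 (YY1, chr3:51408915-51408944, minus strand): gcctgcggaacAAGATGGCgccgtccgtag
In the first 3 the NRF1 core matches on both strands, overlapping in a palindrome. These matches are letters in a window, and binding was not measured.

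Most mitochondrial members had higher levels per length than the nuclear members. On the scale of mean CPM per kilobase of transcript over the 8 libraries, the mitochondrial members had a median of 1515 (range 55.6 to 8526) and the nuclear members a median of 70.8 (range 0.640 to 627). The order within each genome differed between the experiments, so it is given for each. In experiment 1 mt-Co1, the catalytic core of complex IV, led with 8538 CPM per kilobase, ahead of mt-Co2 (3414), mt-Atp6 (3173) and mt-Cytb (3115), the cytochrome b of complex III. In experiment 2 mt-Co3 (13980) and mt-Atp6 (13880) led, ahead of mt-Co1 (8457) and mt-Cytb (8245). mt-Atp8 was lowest in both, with 94.3 in experiment 1 and 16.9 in experiment 2, followed by mt-Nd6 (351) in experiment 1 and mt-Nd4l (20.2) in experiment 2.

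Among the nuclear members the order of the complexes also differed. In experiment 1 complex IV had the highest median, 97.4 CPM per kilobase over 14 genes, followed by complex V (79.9, 17 genes), complex III (60.4, 8 genes) and complex II (48.8, 4 genes). In experiment 2 complex III had the highest, 169, followed by complex II (138), complex IV (121) and complex V (104). The 37 nuclear complex I subunits had lower medians in both experiments, 36.8 and 68.2, and the 8 assembly factors, which help build complex I and leave it again, the lowest in both, 5.85 and 13.8. Over all 8 libraries complex V ranged from Atp5b (627), the catalytic β subunit, to Atp5g2 (2.92), complex IV from Cox4i1 (493) to Cox6b2 (0.640) and complex III from Uqcrh (237) to Uqcr11 (47.2). Complex II ranged from Sdhb (186), its iron-sulfur subunit, to Sdhc (26.8), a membrane anchor, and nuclear complex I from Ndufb8 (176) to Ndufab1 (4.48), the mitochondrial acyl carrier protein. Of these, Atp5b, Cox4i1 and Uqcrh were highest and Cox6b2 and Sdhc lowest of their complex in each experiment, and the others in 1 experiment only.

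Complex IV families have forms known from heart, muscle or testis beside broadly expressed ones. The broadly expressed forms had 359 CPM per kilobase for Cox6a1, 269 for Cox8a, 187 for Cox6b1 and 62.0 for Cox7a2. Ndufa4, named as a complex I gene, is placed with complex IV, where its protein is known to sit, and had 177 CPM per kilobase. Cox7a1, the heart and muscle form, was in the table of experiment 1 only, with 24 counts in the Peyer's patch ZsGreen+ library, 1 in Peyer's patch ZsGreen−, 4 in spleen ZsGreen+ and 0 in spleen ZsGreen−.

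The experiments differed, and differently for short and long genes. In the fitted model experiment 2 was above experiment 1 by a median log2 of 0.95 over the 87 nuclear members tested, against −0.02 over all genes with a transcript length. Over the 6 nuclear members with transcripts under 500 bases the median was −0.49, and over the 17 from 1000 to 1500 bases it was 1.39. The 3 shortest mitochondrial genes were lower in experiment 2: mt-Nd4l, 297 bases long, was at −4.57 ± 0.26 (SE), mt-Atp8 at −2.48 ± 0.24 and mt-Nd3 at −2.38 ± 0.26. The highest values were those of mt-Co3 at 2.67 ± 0.30, Cox5a at 2.55 ± 0.10 and Atp5c1, the γ subunit of complex V, at 2.52 ± 0.14. Of these, mt-Co3 (784 bases) and Cox5a (645 bases) are not long. The 2 mitochondrial genes over 1500 bases were not higher in experiment 2, with mt-Nd5 at −0.57 ± 0.15 and mt-Co1 at −0.02 ± 0.28. Over all genes the pattern ran otherwise at both ends. The median was 0.34 over 549 genes under 500 bases and −0.26 over 11059 genes from 1500 bases. The library preparation notes name 2 alternatives without saying which library had which. Whether the kit differed between experiments, sorts or tissues is therefore not known. All group contrasts below include a term for the experiment. That term covers a kit difference only if the kits went by experiment.

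**Figure D1:**
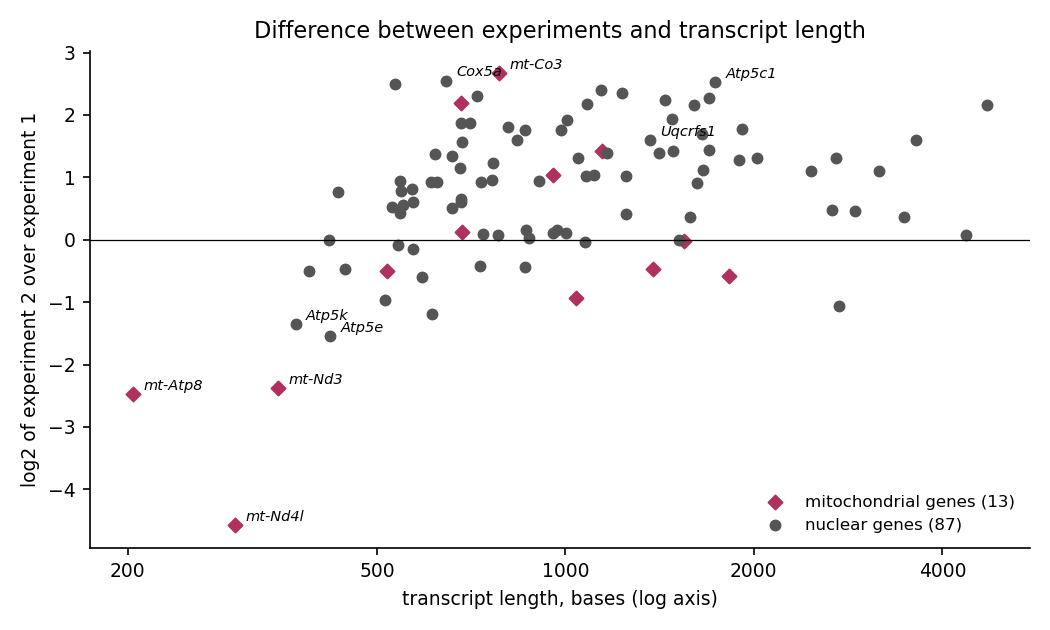
Fitted log2 difference between experiment 2 and experiment 1 (vertical axis) against transcript length in bases (horizontal log axis) for the 100 genes tested; diamonds are mitochondrial and circles nuclear genes. The 3 shortest mitochondrial genes lie at or below −2.38, and most nuclear genes over 500 bases lie above 0.

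In Peyer's patch, no oxidative phosphorylation gene passed the test between ZsGreen+ and ZsGreen− cells. edgeR's quasi-likelihood test with Benjamini-Hochberg adjustment at 0.05 called 0 of 100 members, where it called 0.437% of all 14418 genes tested; DESeq2 also called 0, against 1.02% of all genes. At an unadjusted p under 0.05 there were 6 members, 2 higher and 4 lower, against 8.13% of all genes. The median log2 fold change was −0.02 over the 87 nuclear members, −0.17 over the 13 mitochondrial members and 0.00 over all genes.

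Single members differed in how alike the experiments were. Ndufaf8, an assembly factor, had 20.2 and 18 CPM (replicates 1 and 2) in ZsGreen+ cells against 13.6 and 12.2 CPM in ZsGreen− cells. The ZsGreen+ library was the higher one in each experiment, and the fitted difference was 0.56 ± 0.24 (SE; adjusted p = 0.56). Uqcrb, a small subunit of complex III, had 9.95 and 83.2 CPM in ZsGreen+ cells against 20.5 and 86.3 CPM in ZsGreen− cells. Its difference of −0.50 ± 0.20 (adjusted p = 0.54) was −1.04 in experiment 1 and −0.05 in experiment 2. The 3 copies of Uqcrb took 32.0%, 38.5% and 20.3% of the joint counts of gene and copy in ZsGreen+ replicate 1, against 17.3%, 12.3% and 1.82% in ZsGreen− replicate 1. Summed with its copies, Uqcrb had a difference of −0.15 (adjusted p = 0.85).

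In spleen, 1 member rose in ZsGreen+ cells. Uqcrfs1 (ENSMUSG00000038462, chromosome 13, 30724291 to 30729345 on the minus strand in the files' coordinates, mm39 per the submitters' processing notes) encodes the Rieske iron-sulfur protein, the subunit of complex III that takes electrons from coenzyme Q. It had 107 and 362 CPM (replicates 1 and 2) in spleen ZsGreen+ cells against 73.6 and 236.5 CPM in spleen ZsGreen− cells. The ZsGreen+ library was the higher one in both experiments, by a log2 of 0.54 and 0.62. The fitted log2 fold change was 0.58 ± 0.14 (SE, adjusted p = 0.0226). In Peyer's patch Uqcrfs1 had 78.3 and 212 CPM in ZsGreen+ cells against 68.5 and 191 CPM in ZsGreen− cells, a difference of 0.17 ± 0.14 (adjusted p = 0.82).

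This was 1 of 100 members, where edgeR called 8.62% of all genes in spleen, so calls were not frequent among the members. DESeq2 called 2, Uqcrfs1 and Sdhd, against 10.4% of all genes. At an unadjusted p under 0.05 there were 11 members, 9 higher and 2 lower, against 21.9% of all genes. The Uqcrfs1 call held under all 7 other settings that keep the experiment term (adjusted p from 0.00106 to 0.0237). It held in 4 of the 8 fits with 1 library left out and was lost without any 1 of the spleen libraries, with adjusted p up to 0.236 and log2 fold changes of 0.47 to 0.69. Over both tissues together Uqcrfs1 was the only member called by edgeR, at 0.38 and an adjusted p of 0.0339, where 8.61% of all genes were called; with 1 library left out this held in 1 of 8 fits, the one without Peyer's patch ZsGreen+ replicate 2. At an unadjusted p there were 18 members (11 higher, 7 lower) against 22.2% of all genes. DESeq2 called 4 (Uqcrfs1 and Sdhd higher, mt-Co2 and mt-Nd4l lower), against 10.5%.

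**Figure D2:**
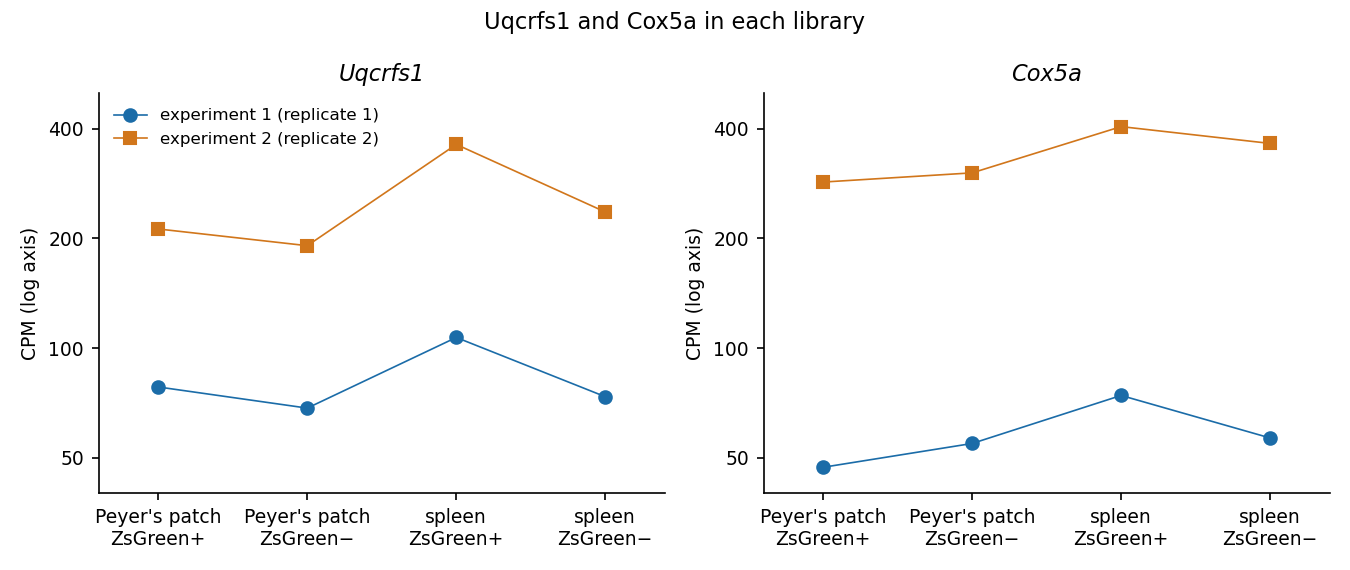
CPM of Uqcrfs1 and Cox5a (vertical log axis) in each of the 8 libraries; circles are experiment 1, squares experiment 2, and lines only join libraries of the same experiment. In both experiments spleen ZsGreen+ cells have the highest level of both genes (107 and 362 CPM for Uqcrfs1, 74.2 and 406 CPM for Cox5a).

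The 87 nuclear members tested, Uqcrfs1 included, had a median log2 fold change of 0.18 in the spleen sort, against −0.03 over all genes. The median was 0.28 within experiment 1 and 0.04 within experiment 2, and with 1 library left out it ranged from 0.07, without spleen ZsGreen− replicate 1, to 0.26; without spleen ZsGreen+ replicate 1 it was 0.08. Of the 87, 45 (51.7%) were higher in both experiments and 6 (6.9%) lower in both, where 31.7% of all genes were higher in both and 34.9% lower in both. All 8 complex I assembly factors were higher in both experiments, with fitted values from 0.22 to 0.54 and a median of 0.33, and none passed the test (smallest adjusted p 0.224). Of the 37 nuclear complex I subunits 22 were higher in both experiments and 0 lower in both. Complex V stood lowest, with a median of 0.04 and 3 of 17 genes higher in both. Members share their libraries, so these counts are a description of 2 pairs of libraries. They also rest on the TMM scaling. As a share of all counts, before that scaling, the nuclear sum was higher in spleen ZsGreen+ cells in both experiments (ratios of 1.15 and 1.22). By summed CPM the ratios were 1.16 and 0.976, so the direction of the sum in experiment 2 depends on the scaling.

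Single members of this kind were Ndufs5, a complex I accessory subunit, and Sdhd, a membrane anchor of complex II. Ndufs5 had 17.1 and 29.3 CPM in spleen ZsGreen+ cells against 9.25 and 19.3 CPM in ZsGreen− cells. The difference was 0.74 ± 0.24 (adjusted p = 0.0876). Sdhd had 59.6 and 273 CPM in ZsGreen+ cells against 42.0 and 226 CPM in ZsGreen− cells, a difference of 0.39 ± 0.13 (adjusted p = 0.0967). Both genes were higher in the ZsGreen+ library of each experiment. At the low end were Atp5k, the e subunit of complex V (−0.31 ± 0.21, adjusted p = 0.44), and Atp5g1 (−0.30, adjusted p = 0.40), of which the copy Gm10039 held 76.5% of the joint counts. Cell-cycle genes moved with the spleen sort: 10 of 12 proliferation genes rose in ZsGreen+ cells, where 653 of all 14418 genes tested rose. The list summed to 1874 and 2791 CPM in spleen ZsGreen+ cells against 960 and 1055 CPM in ZsGreen− cells. In Peyer's patch the sum was also higher in ZsGreen+ cells, with 684 and 1315 CPM against 530 and 781 CPM. The part of these genes in the nuclear members' values was not tested.

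**Figure D3:**
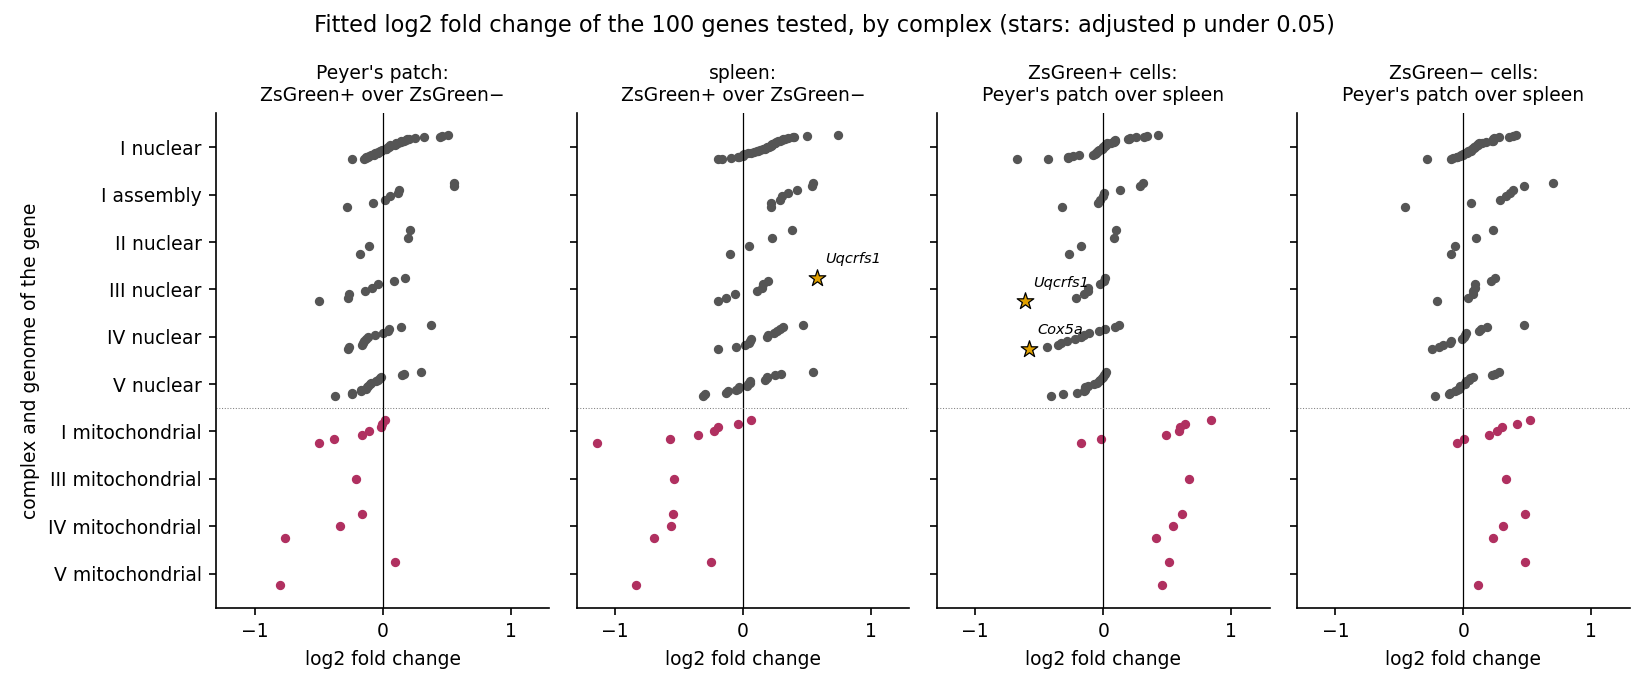
Fitted log2 fold changes (horizontal axis) of the 100 genes tested, in rows by complex and genome, for 4 contrasts; grey points are nuclear genes, red points mitochondrial genes and stars genes with an adjusted p under 0.05. Stars mark Uqcrfs1 (0.58) for the spleen sort, and Uqcrfs1 (−0.61) and Cox5a (−0.58) for the tissues in ZsGreen+ cells; the mitochondrial genes lie mostly below 0 for the sorts and above 0 for the tissues.

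The mitochondrial members went the other way from the nuclear members in the spleen fit, with a median of −0.54, and none passed the test (smallest adjusted p 0.108). Here the experiments disagreed. The summed level of the 13 genes was 22270 and 35030 CPM (replicates 1 and 2) in spleen ZsGreen+ cells against 21480 and 70440 CPM in ZsGreen− cells. In experiment 1 the spleen sorts were close, with a ratio of 1.04 of ZsGreen+ to ZsGreen−, and in experiment 2 the ratio was 0.497. As a share of all counts these were 2.73% and 2.87% in ZsGreen+ cells against 2.64% and 4.62% in ZsGreen− cells. In bulk RNA, fewer cells of a type and less RNA per cell cannot be told apart.

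In Peyer's patch the sums were 37890 and 41530 CPM in ZsGreen+ cells against 38860 and 63130 CPM in ZsGreen− cells, so again only experiment 2 separated the sorts, with ratios of 0.975 and 0.658. The nuclear sums differed little by comparison. They were 5417 and 13160 CPM in Peyer's patch ZsGreen+ cells against 5926 and 13510 CPM in ZsGreen− cells. In spleen they were 6024 and 14110 CPM in ZsGreen+ cells against 5212 and 14460 CPM in ZsGreen− cells. As a share of all counts, before TMM scaling, the nuclear sum in experiment 2 was higher in ZsGreen+ cells of both tissues. The ratios were 1.13 in Peyer's patch and 1.22 in spleen, against 0.974 and 0.976 by CPM. The ratio of mitochondrial to nuclear CPM was 6.99 and 3.16 in Peyer's patch ZsGreen+ cells against 6.56 and 4.67 in ZsGreen− cells, and 3.70 and 2.48 in spleen ZsGreen+ cells against 4.12 and 4.87 in ZsGreen− cells.

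The spleen result rests on the ZsGreen− libraries. Without spleen ZsGreen− replicate 1, 6 mitochondrial genes fell in spleen ZsGreen+ cells (mt-Atp6, mt-Co1, mt-Co2, mt-Co3, mt-Cytb and mt-Nd3), where 5.74% of all genes were called. Without spleen ZsGreen− replicate 2, the mitochondrial median was 0.12 and only mt-Nd4l, a small complex I subunit, fell, where 3.34% were called. In each of these fits the spleen ZsGreen− group has 1 library, assumed to vary like the others.

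**Figure D4:**
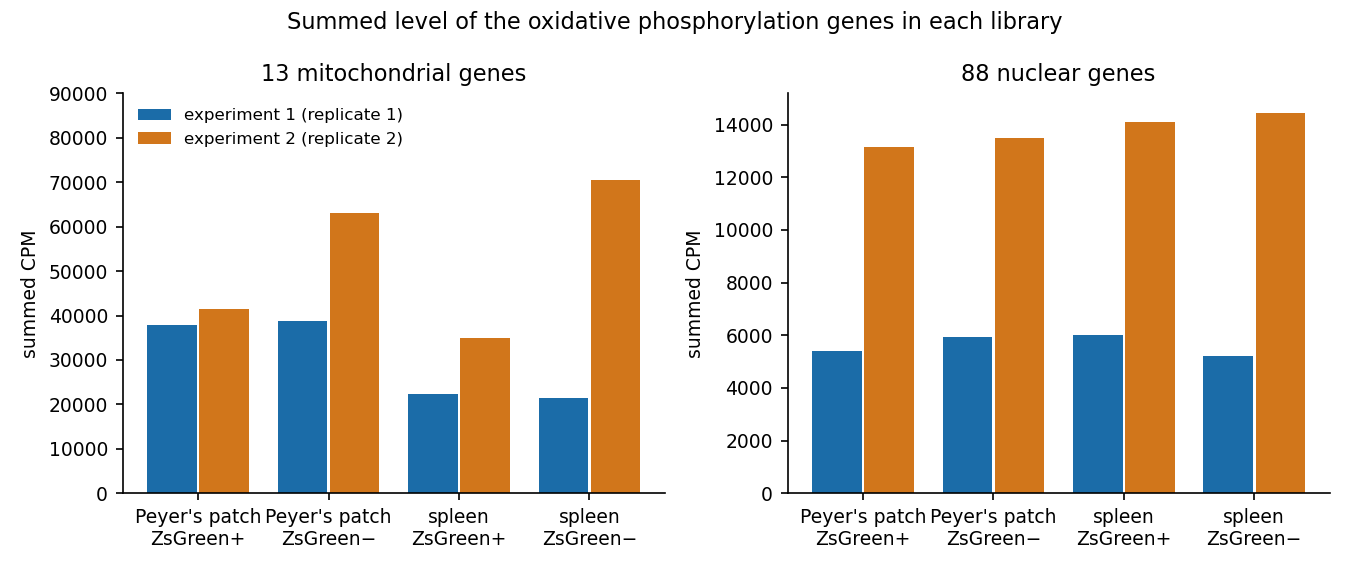
Summed CPM of the 13 mitochondrial and the 88 nuclear genes (vertical axes, from 0) in each library; blue bars are experiment 1 and orange bars experiment 2. Mitochondrial sums differ between sorts in experiment 2 only (35030 against 70440 CPM in spleen), and differ between tissues in experiment 1 in both sorts.

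The sort differences of mt-Co2, mt-Atp6 and mt-Nd4l became smaller once the counts of their chromosome 1 copies were added, and that of mt-Nd3 became larger. For mt-Co2, the complex IV subunit that receives electrons from cytochrome c, the level was 2283 and 1798 CPM in Peyer's patch ZsGreen+ cells against 3956 and 2983 CPM in ZsGreen− cells, and 1394 and 1705 CPM in spleen ZsGreen+ cells against 1706 and 3360 CPM in ZsGreen− cells. Its copy Gm28661 took 55.1% and 54.1% of the joint counts in Peyer's patch ZsGreen+ libraries against 33.7% and 51.0% in ZsGreen− libraries, and 53.3% and 52.1% in spleen ZsGreen+ libraries against 36.9% and 50.5% in ZsGreen− libraries. The ZsGreen− libraries of experiment 1 are the low ones in both tissues. With gene and copy summed, the difference of −0.77 ± 0.32 in Peyer's patch became −0.40, and that of −0.69 ± 0.32 in spleen became −0.49, none of them past the test.

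The same libraries stood out for mt-Atp6. Its copy Gm10925 held 18.7% of the joint counts in Peyer's patch ZsGreen− replicate 1 and 28.7% in spleen ZsGreen− replicate 1, against 48.2% to 49.9% in the other 6 libraries. mt-Atp6 had 2123 and 6753 CPM in Peyer's patch ZsGreen+ cells against 3788 and 11440 CPM in ZsGreen− cells, and 1180 and 6134 CPM in spleen ZsGreen+ cells against 1554 and 13470 CPM in ZsGreen− cells. Summing gene and copy changed its difference to −0.42 from −0.81 in Peyer's patch and to −0.64 from −0.84 in spleen. mt-Co3, which is identical to its copy Gm28437 over 783 bases, was divided evenly in every library (49.1% to 49.98% on the copy), and its differences hardly moved.

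For mt-Nd3 and mt-Nd4l the division also went by sort in experiment 1. Gm28438 held 14.1% of the joint counts with mt-Nd3 in Peyer's patch ZsGreen+ replicate 1 against 40.3% in ZsGreen−, and 14.2% in spleen ZsGreen+ against 36.8% in ZsGreen−. Summed with its copy, mt-Nd3 had a difference of −0.49 in Peyer's patch (adjusted p = 0.66), against 0.02 alone, and of −0.65 in spleen (adjusted p = 0.15), against −0.57 alone. Gm10222 went the opposite way with mt-Nd4l, at 37.9% against 2.05% in Peyer's patch and 48.3% against 2.47% in spleen. In experiment 2 mt-Nd4l had only 26 to 84 counts in a library. Summed with its copy, mt-Nd4l was the 1 mitochondrial gene that edgeR called. It fell in spleen ZsGreen+ cells, by 0.78 on the log2 scale (adjusted p = 0.0141). The difference for the gene alone was −1.14 ± 0.34 (adjusted p = 0.108). In experiment 2 the summed call rests on 52 and 0 counts of gene and copy in ZsGreen+ cells against 26 and 32. There the gene alone was higher in spleen ZsGreen+ cells (4.46 against 3.99 CPM). In Peyer's patch the summed difference was −0.006 (edgeR adjusted p = 0.997). In this summed form edgeR called 2 of 99 members in spleen, Uqcrfs1 and mt-Nd4l, against 8.72% of all genes, 0 in Peyer's patch, against 0.438%, and 1 over both tissues, against 8.76%.

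**Figure D5:**
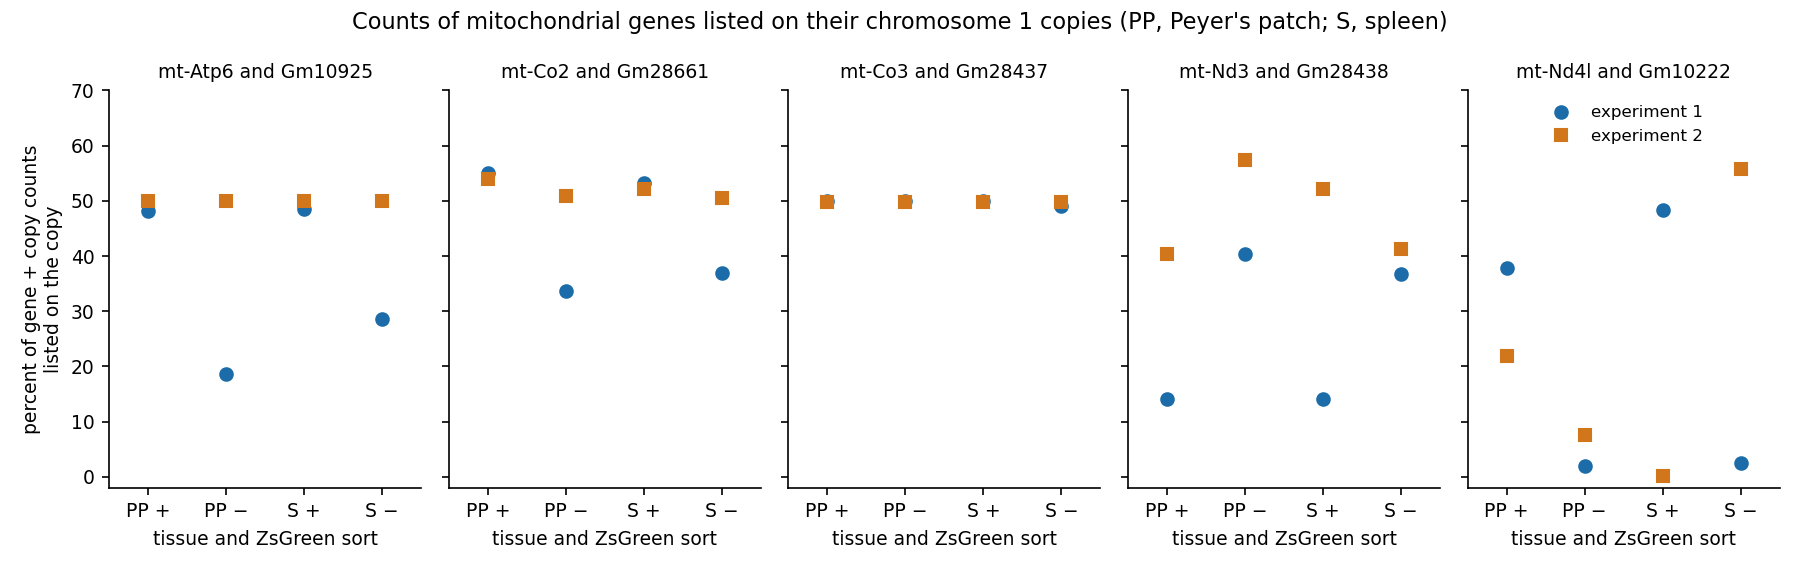
Share of the counts of a mitochondrial gene and its chromosome 1 copy that the files list on the copy, in percent (vertical axis), for 5 gene and copy pairs in the 8 libraries; circles are experiment 1 and squares experiment 2. For mt-Atp6 and mt-Co2 the ZsGreen− libraries of experiment 1 lie lowest (18.7% and 28.7% for mt-Atp6), and mt-Co3 is at 49.1% to 49.98% in every library.

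The test of whether the sort difference depends on the tissue called 0 of 100 members, against 0.0971% of all genes, and DESeq2 called 0, against 0.999%. With copies summed there were again 0, against 0.0973%. At an unadjusted p under 0.05 there were 2 members, Cox5a (−0.42 ± 0.19) and Ndufs5 (−0.75 ± 0.34), both with an adjusted p of 0.58, against 8.48% of all genes. For Uqcrfs1 the sort difference in spleen is thus not shown to differ from that in Peyer's patch. The median of the differences, Peyer's patch minus spleen, was −0.16 over nuclear and 0.19 over mitochondrial members.

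Between the tissues, 2 members fell in Peyer's patch ZsGreen+ cells relative to spleen ZsGreen+ cells, where edgeR called 12.7% of all genes. They were Uqcrfs1 and Cox5a, whose product is a nuclear subunit of complex IV. Uqcrfs1 had 78.3 and 212 CPM in Peyer's patch against 107 and 362 CPM in spleen. The difference was −0.61 ± 0.14 (adjusted p = 0.0118). This comparison shares the spleen ZsGreen+ libraries with the spleen sort, so the 2 calls of Uqcrfs1 are not independent.

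Cox5a (ENSMUSG00000000088, chromosome 9, 57428557 to 57439709 on the plus strand in the files' coordinates) had 47.1 and 286 CPM in Peyer's patch ZsGreen+ cells against 74.2 and 406 CPM in spleen ZsGreen+ cells. Spleen was higher in each experiment, with log2 differences of −0.65 and −0.51 for Peyer's patch over spleen. The fitted difference was −0.58 ± 0.13 (adjusted p = 0.0145). In ZsGreen− cells it was −0.16 ± 0.13 (adjusted p = 0.62), with 54.8 and 303 CPM in Peyer's patch against 56.7 and 365 CPM in spleen. Both calls held under all 7 other settings with the experiment term. Cox5a held in 5 of 8 fits with a library left out (adjusted p up to 0.137, without spleen ZsGreen+ replicate 1 or 2 or Peyer's patch ZsGreen+ replicate 1) and Uqcrfs1 in 6 of 8 (up to 0.141, without replicate 2 of Peyer's patch ZsGreen+ or of spleen ZsGreen+).

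Other complex IV genes lay on the same side without passing the test. Of the 13 nuclear complex IV genes tested, 8 (61.5%) were lower in Peyer's patch ZsGreen+ cells in both experiments, against 34.4% of all genes. These 8 include Cox5a itself and Cox5b-ps, the near-identical copy of Cox5b. The median over the 13 was −0.18. These counts also rest on the TMM scaling. By summed CPM the ratios of Peyer's patch to spleen for nuclear complex IV genes were 0.865 and 0.859 (experiments 1 and 2). As a share of all counts, before that scaling, they were 0.872 and 1.02, so the direction of the sum in experiment 2 depends on the scaling. Cox6a1 had 146 and 213 CPM in Peyer's patch ZsGreen+ cells against 190 and 301 CPM in spleen ZsGreen+ cells (−0.44 ± 0.16, adjusted p = 0.107). Cox5b, the subunit that binds zinc, had 56.0 and 60.4 CPM against 73.2 and 74.9 CPM (−0.35 ± 0.14, adjusted p = 0.134). Outside complex IV, Ndufs5 had 11.6 and 17.0 CPM in Peyer's patch ZsGreen+ cells against 17.1 and 29.3 CPM in spleen ZsGreen+ cells (−0.67 ± 0.24, adjusted p = 0.0903). In complex V 9 of 17 genes were lower in both experiments. Its nuclear sum likewise had ratios of 0.892 and 0.915 by CPM, against 0.899 and 1.085 as a share of all counts. DESeq2 called 4 members (Atp5g3, Cox5a and Uqcrfs1 lower, mt-Nd4 higher), against 14.6% of all genes, and at an unadjusted p under 0.05 there were 9 (3 higher, 6 lower), against 26.4%.

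Most mitochondrial genes were on the opposite side. In ZsGreen+ cells the 13 had a median of 0.54 for Peyer's patch over spleen, and 10 (76.9%) were higher in both experiments, where 36.6% of all genes were. None passed the test as counted (smallest adjusted p 0.133). Their summed level was 37890 and 41530 CPM in Peyer's patch ZsGreen+ cells against 22270 and 35030 CPM in spleen ZsGreen+ cells. Peyer's patch was thus higher in both experiments, by a ratio of 1.70 and 1.19. The gap in experiment 1 was the wider one.

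A fitted difference above 0 was shared by 11 of the 13 genes, from 0.41 (mt-Co2) to 0.85 (mt-Nd4l). Of these, mt-Atp8 was lower in Peyer's patch in experiment 2 (2.48 CPM against 3.26 CPM in spleen ZsGreen+ cells). mt-Nd4, a core complex I subunit, had 3236 and 1696 CPM in Peyer's patch ZsGreen+ cells against 1879 and 1229 CPM in spleen ZsGreen+ cells (0.64 ± 0.26, adjusted p = 0.133). mt-Cytb had 4907 and 7391 CPM against 2497 and 6210 CPM (0.67 ± 0.38, adjusted p = 0.289). The exceptions were mt-Nd5 and mt-Nd6, complex I genes that lie next to each other on opposite strands. mt-Nd5 had 1165 and 710 CPM in Peyer's patch ZsGreen+ cells against 1254 and 669 CPM in spleen ZsGreen+ cells (−0.02 ± 0.21), and mt-Nd6 had 148 and 122 CPM against 183 and 126 CPM (−0.17 ± 0.17).

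Summed with its copy, a setting chosen after seeing the data, mt-Nd4l rose in Peyer's patch ZsGreen+ cells, by 0.76 on the log2 scale (edgeR adjusted p = 0.00932). It had 226 and 8.03 CPM against 135 and 4.46 CPM in spleen ZsGreen+ cells. In experiment 2 this rests on 84 and 23 counts of gene and copy against 52 and 0. The comparison shares the spleen ZsGreen+ libraries with the spleen sort, so the 2 calls of mt-Nd4l are not independent. The summed counts gave 3 calls of 99 members in this comparison, Cox5a, Uqcrfs1 and mt-Nd4l, against 12.9% of all genes. The mitochondrial calls moved with the spleen ZsGreen− libraries, which this comparison does not use but which enter the shared estimate of the spread. Without replicate 1 of that group 5 mitochondrial genes rose (mt-Co1, mt-Nd2, mt-Nd3, mt-Nd4 and mt-Nd4l), against 12.8% of all genes called, and without replicate 2 the same 5 rose, against 12.9%.

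In ZsGreen− cells no member passed the test between tissues, where edgeR called 5.49% of all genes. At an unadjusted p under 0.05 there were 3 members, all higher in Peyer's patch, against 17.7% of all genes; with copies summed edgeR called 0, against 5.54%. Ndufa4 had 83.6 and 160 CPM in Peyer's patch ZsGreen− cells against 56.2 and 123 CPM in spleen ZsGreen− cells. It was higher in Peyer's patch in both experiments, at 0.47 ± 0.14 (edgeR adjusted p = 0.0715). It was also the 1 member DESeq2 called, against 7.57% of all genes. The others were the assembly factors Ndufaf6 (0.70 ± 0.28, adjusted p = 0.199) and Ndufaf3 (0.47 ± 0.19, adjusted p = 0.205).

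The mitochondrial sum in ZsGreen− cells was 38860 and 63130 CPM in Peyer's patch against 21480 and 70440 CPM in spleen. Peyer's patch was higher in experiment 1 by a ratio of 1.81 and lower in experiment 2, at 0.896. As a share of all counts, before TMM scaling, it was 4.77% and 5.29% in Peyer's patch against 2.64% and 4.62% in spleen, higher in both experiments (ratios of 1.81 and 1.15), so the direction in experiment 2 depends on the scaling. All 13 genes together had a median of 0.30. Without spleen ZsGreen− replicate 2, 7 mitochondrial genes rose in Peyer's patch ZsGreen− cells (mt-Atp6, mt-Co1, mt-Co2, mt-Co3, mt-Cytb, mt-Nd2 and mt-Nd4), against 3.69% of all genes, and the median was 0.87. Without replicate 1 the median was −0.10.

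Transcripts of other cells also differed between the tissues. The 8 B cell markers summed to 73.5 and 8.63 CPM in Peyer's patch ZsGreen+ cells against 5.38 and 4.89 CPM in spleen ZsGreen+ cells, and to 86.4 and 18.4 CPM in Peyer's patch ZsGreen− cells against 37.6 and 18.6 CPM in spleen ZsGreen− cells. Of these, 3 of 7 tested rose in Peyer's patch ZsGreen+ cells, where 794 of all 14418 genes tested rose. The 6 epithelial markers summed to 9.28 and 16.5 CPM in Peyer's patch ZsGreen+ cells against 2.77 and 9.26 CPM in spleen ZsGreen+ cells. The 6 myeloid markers summed to 35.9 and 30.1 CPM in Peyer's patch ZsGreen+ cells against 15.2 and 8.74 CPM in spleen ZsGreen+ cells, and to 31.4 and 31.2 CPM in Peyer's patch ZsGreen− cells against 22.7 and 17.8 CPM in spleen ZsGreen− cells. The 3 CD8 T and NK cell markers summed to 46.8 and 65.9 CPM in Peyer's patch ZsGreen+ cells against 18.4 and 32.0 CPM in spleen ZsGreen+ cells, and to 55.8 and 72.5 CPM in Peyer's patch ZsGreen− cells against 21.8 and 29.0 CPM in spleen ZsGreen− cells. The 4 plasma cell markers summed to 108 and 212 CPM in Peyer's patch ZsGreen+ cells against 91.7 and 276 CPM in spleen ZsGreen+ cells. Proliferation genes were lower in Peyer's patch, with 10 of 12 fallen in ZsGreen+ cells, where 1034 of all 14418 genes tested fell. The part of these in the members' values was not tested.

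Related genes outside the complexes were read from 8 pathway lists with 184 genes tested. In the spleen sort edgeR called 8 of them (4.35%), against 8.62% of all genes. In the spleen sort Idh3a, the catalytic subunit of mitochondrial isocitrate dehydrogenase, was the 1 of 16 tricarboxylic acid cycle genes that passed. It had 96.4 and 293 CPM in spleen ZsGreen+ cells against 46.6 and 115 CPM in ZsGreen− cells (1.19 ± 0.14, adjusted p = 0.000383). The rise was present in both experiments. Cox10, which acts in the synthesis of the heme of complex IV, was the 1 of 30 assembly genes of complexes II to V that passed. It had 51.8 and 75.4 CPM in spleen ZsGreen+ cells against 26.4 and 39.6 CPM in ZsGreen− cells (0.95 ± 0.15, adjusted p = 0.00236). Coq7, an enzyme of coenzyme Q synthesis, rose by 0.85 ± 0.22 (adjusted p = 0.0312), 1 of 13 genes. Of 78 mitochondrial ribosome genes 3 rose (Mrps30, Mrpl20 and Mrpl27, by 0.53 to 0.69) and 0 fell. Of 15 genes of mitochondrial transcription and DNA upkeep, 8 regulators and 8 further complex I assembly genes, 0 passed in the spleen sort, with 1, 2 and 0 at an unadjusted p under 0.05 and 0, 1 and 0 called by DESeq2.

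Peyer's patch had no call in any of these lists between the sorts. Of the 184 genes, 9 (4.89%) lay below an unadjusted p of 0.05, against 8.13% of all genes. With DESeq2 1 passed (0.543%), a glycolysis gene, against 1.02% of all genes. Among the 16 glycolysis genes 2 rose in the spleen sort, Slc2a3, a glucose transporter (0.94 ± 0.16, adjusted p = 0.00367), and Pgk1, phosphoglycerate kinase (0.61 ± 0.14, adjusted p = 0.0205).

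Between tissues in ZsGreen+ cells 11 of the 184 genes (5.98%) were called, against 12.7% of all genes, and in ZsGreen− cells 2 (1.09%), against 5.49%. In ZsGreen+ cells Idh3a (−0.85 ± 0.14, adjusted p = 0.00152), Cox10 (−0.64 ± 0.14, adjusted p = 0.0115), Mrps30 (−0.57 ± 0.14, adjusted p = 0.022) and Coq10b, a coenzyme Q binding protein (−0.999 ± 0.19, adjusted p = 0.00535), fell in Peyer's patch. In the same comparison Polg, the mitochondrial DNA polymerase, rose (0.64 ± 0.14, adjusted p = 0.0103), as did Cox14 (0.56 ± 0.15, adjusted p = 0.0312), Mrps6 (0.62 ± 0.17, adjusted p = 0.0288) and the glycolytic genes Tpi1 (0.87 ± 0.15, adjusted p = 0.00223) and Pfkl (0.80 ± 0.13, adjusted p = 0.00221). Another 2 glycolysis genes fell, with Slc2a3 at −1.76 ± 0.16 (adjusted p = 4.17e-05). The spleen ZsGreen+ libraries also enter the spleen sort. Idh3a, Cox10, Mrps30 and Slc2a3 were called there too, so the calls of each gene are not independent. In ZsGreen− cells Coq10b fell (−0.90 ± 0.19, adjusted p = 0.0197) and Tpi1 rose (0.56 ± 0.15, adjusted p = 0.0476) in Peyer's patch.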

How the data were processed

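The 8 libraries were mapped to groups by their labels. Per the submitters' processing notes, Partek, STAR, DESeq2 and the mm39 build were used; no version or role is given there. The authors deposited, for each experiment, a table of estimated counts per gene and a table of normalized signal, which was found to be the counts times one constant per library. Counts were rounded and the genes of both tables joined. edgeR 4.0.16 (R 4.3.3) was fitted to all 8 libraries with TMM, its expression filter (minimum count 10, total 15), group and experiment, leaving 3 residual degrees of freedom. F tests were adjusted by Benjamini-Hochberg over 14418 genes at 0.05; 2317 genes were removed. Same-numbered libraries deviated together (r from 0.825 to 0.867 over 6 group pairs), and per the labels the number marks the experiment, which is the block. CPM used TMM library sizes; within-experiment log2 differences used a pseudocount of 0.1. Total counts per library affect the precision of each value, as do the gene's own counts and their spread between libraries. Copies were found with blastn 2.17.0 in GENCODE vM21 transcripts. The script was tested on simulated data.

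Alternatives were size factors by relative log expression (RLE), no filter, a minimum count of 50, DESeq2 1.42.0, no experiment term, library sizes without mitochondrial genes, limma 3.58.1 on the authors' normalized signal (log2 of signal plus 1), each library left out and, chosen after seeing the data, members summed with their copies. The members, gene lists and motifs were chosen with earlier results of these data known. Genes were named by a rule: all mitochondrial members, every member called, the highest and lowest level per kilobase in each complex, the 3 highest and 3 lowest nuclear fold changes of each contrast, families with tissue-restricted forms, and up to 3 called genes per list and contrast. Atp5b, Ndufb8, Sdhd, Cox5b and other members named outside it were chosen after their values were seen.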

Additional observations from a re-analysis of the deposited data

Results flagged for a closer look

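Cox7a1, the heart and muscle form of a complex IV subunit, was listed in the table of experiment 1 only and so entered no comparison. It had 24 counts in the Peyer's patch ZsGreen+ library, 1 in Peyer's patch ZsGreen−, 4 in spleen ZsGreen+ and 0 in spleen ZsGreen−, each a single library with no replicate.

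Slc2a3, a glucose transporter of the glycolysis list, had a sort difference that differed between the tissues. It had 19.2 and 11.5 CPM in Peyer's patch ZsGreen+ cells against 27.3 and 16.7 CPM in ZsGreen− cells, and 68.1 and 36.8 CPM in spleen ZsGreen+ cells against 36.1 and 18.7 CPM in ZsGreen− cells. The difference of the log2 fold changes, Peyer's patch minus spleen, was −1.46 ± 0.23 (SE, edgeR adjusted p = 0.0338).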

How the results depend on the processing

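No called value changed direction under the alternatives run. Members called in the spleen sort numbered 2 with DESeq2, 2 with copies summed (chosen after seeing the data) and 0 with no replicate block, against 1 as reported. Over both tissues there were 3 with no filter, 4 with DESeq2 and 0 with no replicate block. Between tissues in ZsGreen+ cells there were 4 with DESeq2 and 0 with no replicate block, and in ZsGreen− cells 1 with DESeq2. The cause was not tested. The median of the mitochondrial members for the tissue dependence of the sort was 0.10 with limma on the authors' normalized signal, and the summed nuclear level between tissues in ZsGreen+ cells was −0.17 with RLE. With 1 library left out, calls ranged from 0 to 6 in the spleen sort and over both tissues, and from 0 to 7 between tissues in either sort. The nuclear median between tissues in ZsGreen+ cells then ranged from −0.16 to 0.01. The mitochondrial median ranged from −0.77 to 0.12 in the spleen sort, from −0.62 to 0.16 in Peyer's patch, from −0.51 to −0.03 over both tissues, from −0.33 to 0.57 for the tissue dependence, from 0.08 to 0.86 between tissues in ZsGreen+ cells and from −0.10 to 0.87 in ZsGreen− cells. A group left with 1 library was assumed to vary like the others. With 2 libraries a group, small differences were not detectable.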
